A study of Homo sapiens with 8 samples.

Results

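The genes described here are the 128 gene names that filled 6 or more rows of the PLC/PRF/5 column in a deposited table of m6A differences between CSTF2-knockout and parental cells, out of 5477 names in that column. Each row is taken as 1 m6A peak, and the names were counted without regard to their values. The 128 names made up 2.34% of all names and held 977 of the 9516 peaks, or 10.3%. The rule used the number of rows, so that number is no finding, while the values of the rows and those in the second cell line were not used by it.

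PLC/PRF/5 and HUH7 are human lines grown from hepatocellular carcinomas. Their libraries came from 4 kinds of sample per line: m6A immunoprecipitate and input of cells with CSTF2 knocked out by CRISPR-Cas9, and m6A immunoprecipitate and input of the unedited parental cells, with 1 library for each. CSTF2 encodes an RNA-binding subunit of the cleavage stimulation factor, which acts in forming the 3′ ends of mRNAs. Whether the knockout cells were a single clone or a pool is not given in the sources used here. No value had a replicate, read depth is unknown, and no test between the genotypes was possible. CSTF2 itself filled 1 PLC/PRF/5 row, at -0.50 in the authors' deposited table, and was not listed in HUH7, so the table holds no check of the knockout.

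N6-methyladenosine (m6A) is laid down on nascent mRNA, mostly within a short sequence context, and is densest in long internal exons and around stop codons. In MeRIP-seq an antibody pulls down fragmented RNA that carries the mark, and a region enriched over input is called a peak. A transcript with a long uninterrupted stretch of methylated sequence can therefore carry several peaks, and genes for giant structural proteins are typical of such transcripts. Peak positions and transcript sequences were not analysed here, so the spread of peaks within a gene is given as a spread of values and not of positions.

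Values are log2 fold changes from the authors' deposited table. Its headers do not say which genotype is the numerator, so signs are given as deposited and say nothing of gain or loss in the knockout. The PLC/PRF/5 values filled their range nearly evenly, in the peak-rich genes and elsewhere. Peaks of the 128 genes fell into the 15 unit-wide bins from -2 to 13 in shares of 5.42 to 7.68%, against 6.24 to 6.92% for all other peaks. Another 4 peaks of the 128 genes and 62 other peaks lay below -2. Every large or small value named below is 1 of this evenly filled range. Of the hepatocyte markers checked, 6 of 8 were listed in PLC/PRF/5 and 6 of 8 in HUH7. Markers of other cell types were listed for 3 of 13 in PLC/PRF/5 and for 9 of 13 in HUH7, where a listing gives no level.

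**Figure D1:**
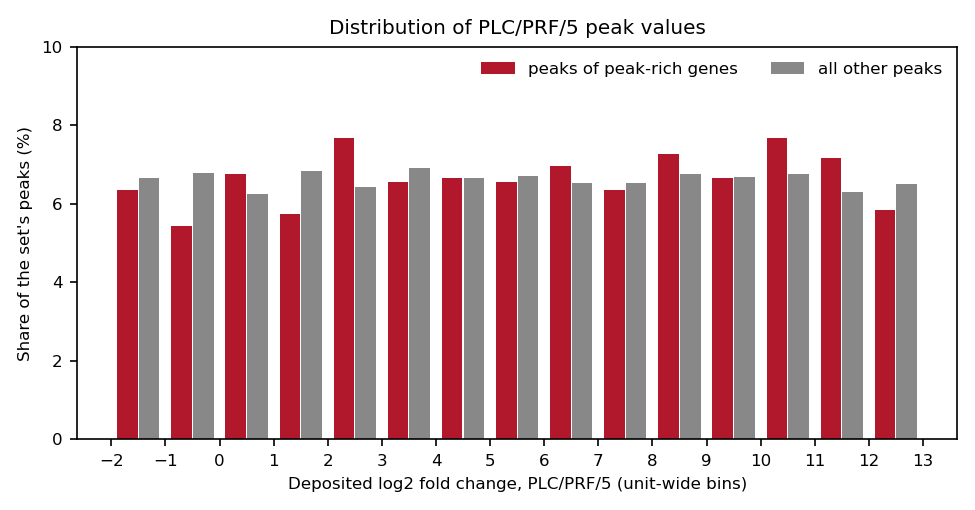
Share of peaks (vertical axis, %) in each unit-wide bin of the deposited PLC/PRF/5 log2 fold change (horizontal axis), for the 977 peaks of the peak-rich genes (red) and the 8539 other peaks (grey). Both sets fill the range nearly evenly, between 5.42 and 7.68% per bin in the peak-rich genes and between 6.24 and 6.92% in the others.

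The peaks of the 128 genes were close to the rest of the column in sign, size and spread. A value above 0 was held by 858 of the 977 peaks and a value below 0 by 119, which is 87.8% positive (exact Clopper-Pearson 95% interval 85.6 to 89.8), beside 86.0% over all PLC/PRF/5 peaks. All other peaks taken alone were 85.8% positive (85.1 to 86.6). A log2 fold change at or beyond 1 in size, counted here as past the fold, was reached by 792 positive and 66 negative peaks of the 128 genes, 87.8% in all. The shares over all PLC/PRF/5 peaks were 79.7% positive and 7.31% negative, 87.1% in all, so passing the fold did not set the peak-rich genes apart. Their median was 5.70 with quartiles of 2.06 and 9.37, and that of the other peaks was 5.42 with quartiles of 1.69 and 9.16. The intervals described the lists of peaks and contained no error between libraries. Peaks of the same gene also share a transcript and are not independent.

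The limit of 6 rows cut through a continuous tail. Exactly 6 rows were filled by 51 names and exactly 5 rows by 92 names just outside. The peaks of the names with 6 rows had a median of 6.21 and were 87.3% positive. Those of the names with 5 rows had a median of 5.18 and were 85.4% positive. Within the 128, a further 28 names had 7 rows, 22 had 8, and 27 had 9 or more, which together held 299 peaks.

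Long genes made up much of the list. The RefSeq table for GRCh38.p14, the build hg38 of the submitters' processing notes, gave a span for 127 of the 128 names and for 4997 of the 5349 others. The median span, introns included, was 113 kb in the peak-rich genes (quartiles 63.8 and 187 kb), against 39.6 kb in the other genes (quartiles 16.0 and 88.3 kb). Spans of 100 kb or more were found for 69 of the 127 peak-rich genes (54.3%) and for 21.6% of the others. Names with 2 to 5 peaks had a median span of 52.7 kb and names with 1 peak 31.5 kb. Within the 127 peak-rich genes the number of peaks hardly went with span (Spearman rho 0.03, Pearson r 0.16). The rule cut the number of peaks at 6, and 51 names were tied there. The correlation within the list therefore does not describe peaks and span over the whole column. Protein-coding genes accounted for 125 of the 128 and long noncoding RNA genes for 2, while the 178 pseudogene names of the column all lay among the others.

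Because the rule sets a floor of 6 peaks, peaks per span within the list follow mainly from the span, and the values are given as a description of how far the genes differ. MALAT1, an abundant nuclear noncoding RNA, had 10 peaks in 8.78 kb, or 114 per 100 kb of span. HNRNPU, which encodes a nuclear RNA- and scaffold-binding protein, had 56.2 per 100 kb, CHML, which encodes a Rab escort protein, 52.1, and SRRM2, which encodes a splicing speckle protein, 42.6. At the other end stood the nucleoporin gene RANBP2 with 0.80 per 100 kb. Its RefSeq span of 1123 kb overlaps the listed names RGPD5 and SOWAHC, so this low value rests on how far the annotated span reaches. The matrix protein gene RELN had 1.16 and the calcium channel gene ITPR2 1.21. HNRNPU, CHML and ITPR2 were picked once their values were known. The median over the peak-rich genes was 6.71 peaks per 100 kb and over the other genes 3.79, a difference that the count of rows built in.

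**Figure D2:**
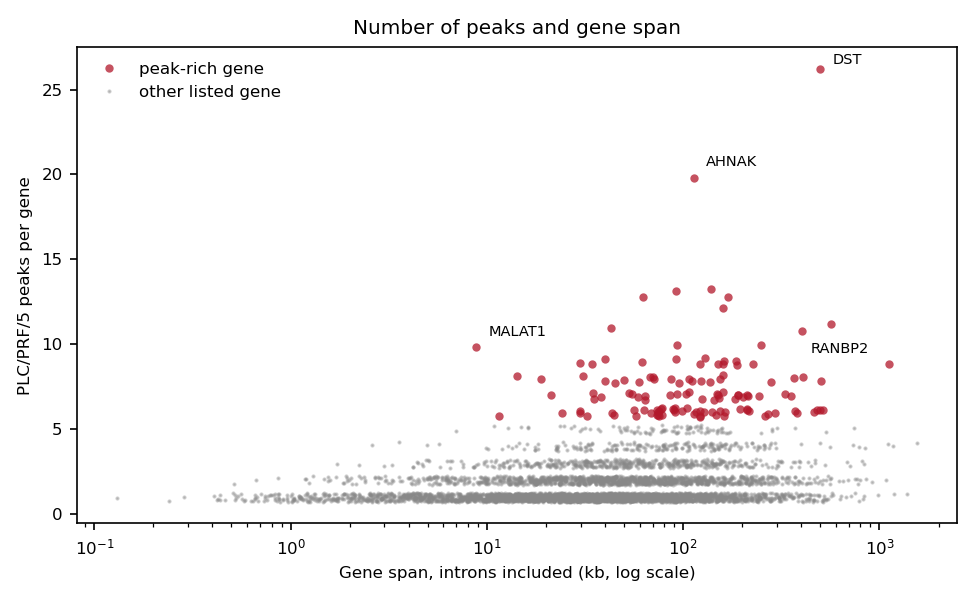
Number of PLC/PRF/5 peaks per gene (vertical axis, points shifted slightly for visibility) against gene span with introns (horizontal axis, kb, log scale), for peak-rich genes (red) and other listed genes (grey). The peak-rich genes centre on a median span of 113 kb against 39.6 kb, with MALAT1 (8.78 kb) and RANBP2 (1123 kb) at the ends.

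By function, the 128 genes fell mainly into chromatin, RNA, cytoskeleton and centrosome groups. Lists of large genes drawn up with earlier results of these data known placed 84 of the 128, 40 were placed by known function after the members were seen, and 4 stayed without a group. Chromatin and transcription held 35 genes, RNA processing, nuclear pore and translation 16, cytoskeletal linkers and membrane skeleton 14, centrosome, cilium and spindle 12, and motors and membrane traffic 10. Of the listed genes, 473 were present in PLC/PRF/5, and 84 of these were peak-rich. By list, 10 of 36 cytoskeletal (27.8%), 30 of 125 chromatin (24.0%) and 11 of 52 centrosomal genes (21.2%) were peak-rich. The shares were 20.0% for repair, 15.4% for secreted, 15.1% for signalling, 11.1% for motor, 10.3% for RNA and 7.89% for ubiquitin genes. Over all names the share was 2.34%. The lists were made of genes known to be large, so these shares describe them and are no separate evidence.

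Cytoskeletal linkers held the top of the list. DST (chromosome 6, 56457996 to 56954830), which encodes dystonin, a spectraplakin that ties intermediate filaments, actin and microtubules together, had 26 peaks, 23 positive and 3 negative. Their lowest value was -1.71, the median 5.48 and the highest 11.94 in the authors' deposited table. The 26 values ran through nearly the whole range of the column, as did those of most genes below. Its paralogue MACF1 (chromosome 1, 39084167 to 39487138), the second human spectraplakin gene, had 11 peaks with a lowest value of -0.81, a median of 6.14 and a highest of 10.54 in the authors' deposited table. AHNAK (chromosome 11, 62433544 to 62546806), a giant scaffold protein under the plasma membrane, had 20 peaks between -0.56 and 12.23 with a median of 6.61 in the authors' deposited table. DST and MACF1 overlapped over most of their ranges. The SD of single peaks was 3.81 and 3.99, and the difference between the 2 medians was not tested.

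UTRN (chromosome 6, 144285335 to 144853034), which encodes utrophin, the widely expressed relative of dystrophin, had 11 peaks between -0.74 and 10.21 with a median of 6.48 in the authors' deposited table. FAT1 (chromosome 4, 186587794 to 186726696), a giant protocadherin, had 13 peaks between -1.43 and 12.75 and a median of 8.66 in the authors' deposited table. RDX, which encodes radixin, a linker of actin to the membrane, had 9 peaks between -1.32 and 11.98 with a median of 4.17 in the authors' deposited table. All 3 genes had both positive and negative peaks. The desmosomal plaque gene DSP, with 8 peaks between 1.42 and 8.88, and the spectrin gene SPTBN1, with 7 peaks between 1.66 and 11.22, had positive peaks throughout in the authors' deposited table. SYNE2, which encodes a nuclear envelope linker, ran from -1.92 to 12.82 over 6 peaks, and TJP1, which encodes a tight junction scaffold, from -1.28 to 10.08 over 6 peaks in the authors' deposited table. The 14 genes of the group had 131 positive and 14 negative peaks with a median of 6.14.

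NEB (chromosome 2, 151485339 to 151734476), the gene of the muscle thin-filament protein nebulin, had 10 peaks between -0.86 and 12.05 with a median of 3.75 in the authors' deposited table. Its RefSeq span overlaps that of the telomere and replication timing gene RIF1, itself peak-rich with 7 peaks between 0.04 and 10.99 in the authors' deposited table. Without the strand and position of the peaks, the 2 neighbours' peaks could not be told apart where the genes overlap. The same holds for 13 of the 128 genes in all, whose spans overlap another listed name, among them RANBP2 with RGPD5 and ANKHD1-EIF4EBP3 with ANKHD1. In addition, 26 of the 128 genes have at least 1 RefSeq pseudogene that bears their symbol, and for TTC3, ANKRD26 and SMG1 such a pseudogene was itself listed, so that reads could be shared between the copies.

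Centrosome and spindle genes held 104 peaks. AKAP9 (chromosome 7, 91940862 to 92110673), a scaffold that anchors kinases and microtubule nucleation at the centrosome and Golgi, had 13 peaks, 10 positive and 3 negative. They ran from -1.91 to 7.42 with a median of 2.06 in the authors' deposited table. ASPM (chromosome 1, 197084127 to 197146669), a spindle pole protein mutated in primary microcephaly, had 13 peaks between -1.05 and 12.32 and a median of 7.59 in the authors' deposited table. No AKAP9 peak passed 7.42, and the ASPM median lay above it, but the ranges overlapped from -1.05 upward. The SD of single peaks was 3.15 for AKAP9 and 4.90 for ASPM, and the difference between the 2 medians was not tested.

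CEP350 (chromosome 1, 179954810 to 180114875), which anchors microtubules at the centriole, had 12 peaks between -0.99 and 12.01 with a median of 2.86 in the authors' deposited table. CEP290 (chromosome 12, 88049016 to 88142088), a gate protein of the ciliary transition zone, had 10 peaks between -1.32 and 11.45 and likewise a median of 2.86 in the authors' deposited table. CENPF, a large kinetochore-associated protein of the G2 and M phases, had 9 peaks between 1.19 and 12.22, all positive, in the authors' deposited table. The kinetochore motor gene CENPE had 7 positive peaks within 0.71 to 4.51 in the authors' deposited table, 1 of the narrowest ranges of the list. KNL1, the kinetochore scaffold that recruits checkpoint proteins, ran from -1.01 to 11.50 over 8 peaks, and the centriolar satellite gene PCM1 from 0.06 to 12.27 over 7 peaks in the authors' deposited table. CKAP2, a spindle microtubule protein gene, ran from -0.58 to 12.29 over 7 peaks in the authors' deposited table. The 12 genes of the group had 89 positive and 15 negative peaks with a median of 3.50, which was below the 5.70 of all peak-rich genes. Medians below 5.70 were also found for ubiquitin (4.16), repair (4.20), channel and receptor (4.59), secreted (5.61) and signalling genes (5.66). The genes without a group had 3.93, and the remaining groups lay above 5.70. Peaks of the same gene are not independent, and the differences were not tested.

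Motor and traffic genes had 73 positive and 3 negative peaks and a median of 6.82. That is 96.1% positive, beside 86.0% over all PLC/PRF/5 peaks. Of the 10 genes, 5 were placed in the group after the members were seen, and the difference was not tested. DYNC1H1 (chromosome 14, 101964573 to 102056443), the heavy chain of cytoplasmic dynein, had 13 positive peaks between 4.42 and 12.40 with a median of 8.16 in the authors' deposited table. Its lowest peak lay above the medians of AKAP9, CEP350 and CEP290, and its SD of 2.76 was below the 4.28 over all peaks of the 128 genes. The Golgi tether gene GOLGB1 had 8 peaks between 1.70 and 11.62 and the collagen export gene MIA3 8 peaks between 1.93 and 11.27, all positive, in the authors' deposited table. VPS13A, a bridge-like lipid transfer protein gene, had 7 positive peaks between 2.07 and 10.33 in the authors' deposited table. KIAA1109, now named BLTP1 and of the same protein class, had 6 peaks between -0.10 and 9.19 in the authors' deposited table. The presynaptic and secretory scaffold gene ERC1 had 8 peaks, 1 of them negative, between -1.34 and 12.63 in the authors' deposited table.

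**Figure D3:**
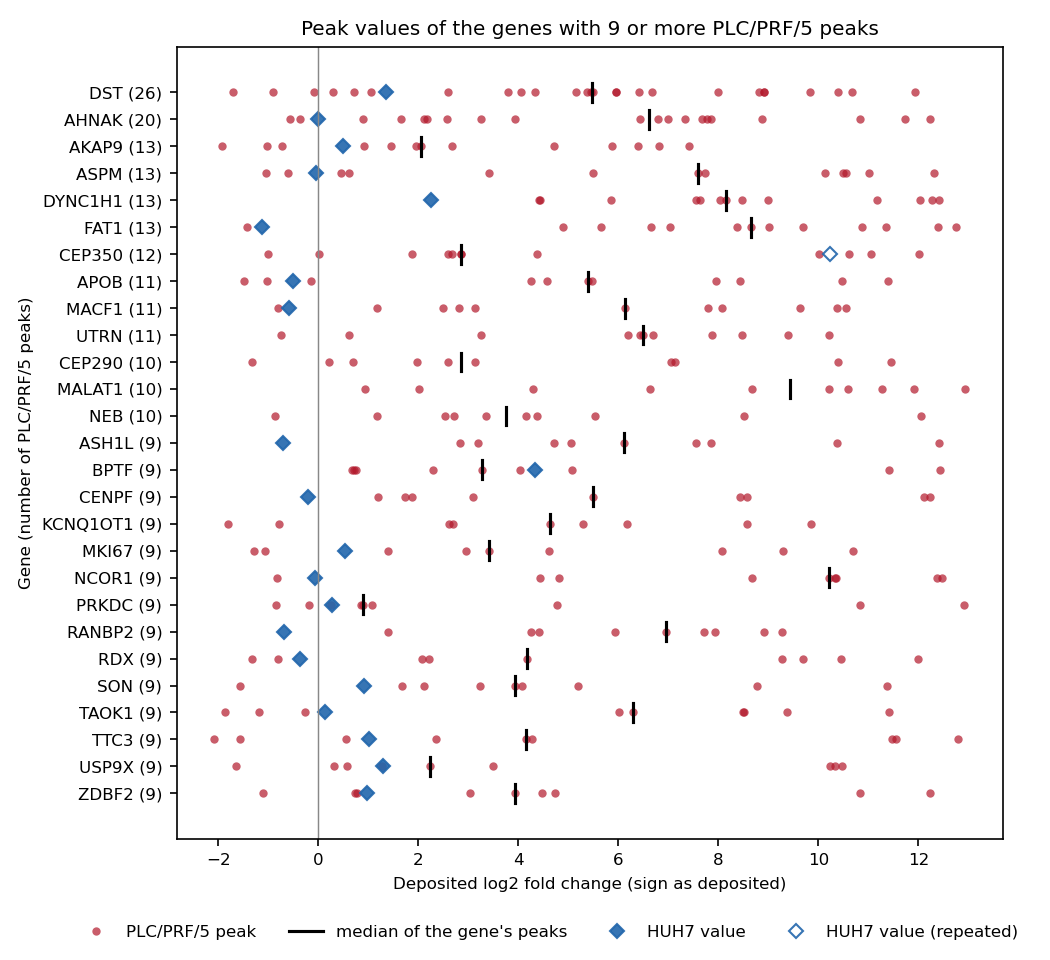
Deposited log2 fold changes (horizontal axis, sign as deposited) of every PLC/PRF/5 peak (red points) of the 27 genes with 9 or more peaks, with the median of each gene (black bar) and the HUH7 value of the same gene (blue diamond, open where the value is shared by 10 or more genes). Peaks of most genes run across the range, as in DST from -1.71 to 11.94, while DYNC1H1 stays between 4.42 and 12.40 and AKAP9 between -1.91 and 7.42.

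Chromatin and transcription formed the largest group, with 212 positive and 32 negative peaks in 35 genes and a median of 6.02. BPTF (chromosome 17, 67825503 to 67984378), the histone-reading subunit of the nucleosome remodelling factor NURF, had 9 positive peaks between 0.67 and 12.43 with a median of 3.28 in the authors' deposited table. ASH1L, a histone H3 lysine 36 methyltransferase gene, had 9 positive peaks between 2.84 and 12.40 with a median of 6.11 in the authors' deposited table. NCOR1, a corepressor of nuclear receptors, ran from -0.83 to 12.47 over 9 peaks with a median of 10.22, the highest among the genes with 9 or more peaks in the authors' deposited table. MKI67, the proliferation marker that coats mitotic chromosomes, had 9 peaks between -1.29 and 10.70 and a median of 3.42 in the authors' deposited table. Each of these genes except ASH1L had at least 1 peak below 1.

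ATRX, a heterochromatin remodeller gene, ran from -1.70 to 12.02 over 8 peaks, and BDP1, a subunit gene of RNA polymerase III factor TFIIIB, from -2.11 to 12.44 over 8 peaks in the authors' deposited table. The BDP1 peak at -2.11 was the lowest of the 977. All 3 genes of the BRWD family, which encode bromodomain and WD-repeat proteins, were peak-rich, a set picked once the members were known. BRWD1 had 8 peaks with a median of 1.73, BRWD3 had 6 peaks with a median of 1.94, and PHIP had 7 positive peaks with a median of 8.56. BRWD1 ran from -1.98 to 9.15, BRWD3 from -1.09 to 9.53 and PHIP from 1.81 to 11.88 in the authors' deposited table, so the 3 ranges overlapped.

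RNA-related genes had 98 positive and 13 negative peaks in 16 genes and a median of 5.94. SON, a splicing cofactor of nuclear speckles (chromosome 21, 33543038 to 33577481), had 9 peaks between -1.57 and 11.38 with a median of 3.93 in the authors' deposited table. RANBP2 (chromosome 2, 108719482 to 109842301), a nucleoporin and SUMO ligase gene, had 9 positive peaks between 1.40 and 9.27 in the authors' deposited table. The RGPD genes are near-identical partial copies of RANBP2, and reads of the 2 could be split between them. SRRM2 had 8 positive peaks between 3.42 and 11.66 and its namesake SRRM1, also a splicing coactivator gene, 6 positive peaks between 2.36 and 9.62 in the authors' deposited table. TPR, the nuclear basket protein gene, ran from -1.79 to 10.24 over 7 peaks, and the translation factor gene EIF4G3 from 4.33 to just under 13 over 6 peaks in the authors' deposited table. ZC3H13, a subunit gene of the m6A writer complex picked once its values were known, held 6 peaks between -0.08 and 11.81 in the authors' deposited table.

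The 2 noncoding RNA genes were MALAT1 and KCNQ1OT1. MALAT1 (chromosome 11, 65497738 to 65506516) had 10 positive peaks between 0.93 and 12.94 with a median of 9.44 in the authors' deposited table. KCNQ1OT1 (chromosome 11, 2608328 to 2699994), an imprinted RNA antisense to KCNQ1 whose reads cannot be told from that gene's without the strand, had 9 peaks between -1.80 and 9.86 with a median of 4.64 in the authors' deposited table. Neither was listed in HUH7. Together they had 17 positive and 2 negative peaks.

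DNA repair, ubiquitin and signalling genes were fewer, with 39 positive and 5 negative peaks in 6 repair genes, 29 and 7 in 5 ubiquitin genes, and 52 and 7 in 8 signalling genes. PRKDC (chromosome 8, 47773111 to 47960136), the catalytic subunit of the DNA end-joining kinase, had 9 peaks between -0.85 and 12.91 in the authors' deposited table, with a median of 0.90 that was the lowest of the 128 medians. BRCA2 had 7 positive peaks between 1.49 and 10.14, and REV3L, the catalytic subunit gene of translesion polymerase zeta, 7 peaks between -1.70 and 10.32 in the authors' deposited table. RAD50, of the break-sensing MRN complex, had 6 positive peaks between 0.81 and 12.86, and SMG1, a kinase of nonsense-mediated decay kept in the same list, 6 peaks between -2.02 and 10.96 in the authors' deposited table. SMG1 has 7 pseudogene names in RefSeq, 1 of them listed in the column, so its peaks are uncertain. USP9X, a deubiquitinase gene that stood in the repair list, had 9 peaks between -1.65 and 10.46 and a median of 2.23 in the authors' deposited table.

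Among the ubiquitin ligase genes, TTC3 had 9 peaks between -2.08 and 12.78 in the authors' deposited table, the widest span of values of any of the 128 genes. TRIP12 ran from -1.98 to 12.70 over 7 peaks and HUWE1 from -1.50 to 11.84 over 6 peaks in the authors' deposited table. Of the kinases, TAOK1, an activator of stress MAP kinases, had 9 peaks between -1.87 and 11.42, and WNK1, a regulator of ion cotransport, 8 peaks within -0.61 to 4.99 in the authors' deposited table. No WNK1 peak reached the 5.70 that was the median of all peak-rich peaks. AKAP13, a kinase anchor gene, ran from -0.62 to 12.78, and ARHGEF12, a guanine nucleotide exchange factor gene, from -0.85 to 12.92, each over 8 peaks in the authors' deposited table. ANKRD26, a gene with 4 RefSeq pseudogenes, ran from -1.97 to 11.16 over 7 peaks in the authors' deposited table. ZDBF2, an imprinted zinc finger gene outside the groups, had 9 peaks between -1.11 and 12.22 and a median of 3.93 in the authors' deposited table.

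Some members encode liver products, although of the 8 hepatocyte markers checked only APOB was peak-rich. APOB (chromosome 2, 21001429 to 21044073), the structural protein of very-low- and low-density lipoproteins, had 11 peaks, 8 positive and 3 negative, between -1.48 and 11.40 with a median of 5.39 in the authors' deposited table. CP, which encodes the copper carrier ceruloplasmin, had 8 peaks, 5 positive and 3 negative, between -1.63 and 12.69 in the authors' deposited table. CPS1, the mitochondrial enzyme gene that starts the urea cycle, had 7 positive peaks between 0.14 and 12.23 in the authors' deposited table. LRP6, a Wnt coreceptor gene in the same list, ran from -0.98 to 12.27 over 7 peaks, and the mucin gene MUC16 from 0.30 to 12.88 over 6 peaks in the authors' deposited table. The 7 genes of the secreted, lipid and matrix group had 41 positive and 10 negative peaks, 80.4% positive, beside 86.0% over all peaks. The remaining groups had 3 genes each, with 20 positive and 2 negative peaks for metabolic enzymes, 16 and 3 for folding factors of the secretory pathway, and 15 and 3 for channels and surface receptors. The 4 genes without a group had 26 positive and 3 negative peaks.

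Values differed within a gene about as much as over all the peaks. The highest and lowest peaks of a gene lay a median of 11.94 apart over the 128 genes (quartiles 9.72 and 13.07), and 91 genes had a range of 10 or more. SDs of peaks within a gene had a median of 4.32, beside an SD of 4.28 over all 977 peaks. A highest peak of 10 or more was found in 103 genes and a lowest peak of -1 or less in 55. The medians of the genes were closer together, from 0.90 to 10.75, and 98 of 128 lay between 3 and 9. The smallest ranges were 3.48 in SH3PXD2A, a podosome scaffold gene, 3.80 in CENPE and 4.70 in ACTR2, a subunit gene of the actin-nucleating Arp2/3 complex. The largest were 14.86 in TTC3 and 14.74 in SYNE2, and these 5 genes were picked once their values were known.

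The range was mostly wider in genes with more peaks, though not from 5 peaks to 6. A range can only widen as values are added, while the SD changed little from 5 peaks on. Names with 2 to 5 peaks had a median range of 6.11 and a median SD of 3.61. At 6 peaks the median range was 10.97 and the median SD 4.21, at 7 or 8 peaks 12.02 and 4.37, and at 9 or more 12.78 and 4.35. At 5 peaks, just outside the rule, they were 11.07 and 4.50. Peaks of both signs were found in 80 of the 128 genes (62.5%, exact 95% interval 53.5 to 70.9), only positive peaks in 48 and only negative peaks in 0. Of the 80 genes, 49 had 1 negative peak, 23 had 2 and 8 had 3. The share with both signs was 57.6% in names with 5 peaks and 60.8% in names with 6, and 31.4% over names with 2 to 5 peaks, where fewer peaks could be negative. In 52 of the 128 genes every peak had an absolute value of 1 or more. Since 87.1% of all PLC/PRF/5 peaks were that large and other names were not counted in this way, the count is no result about the peak-rich genes.

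**Figure D4:**
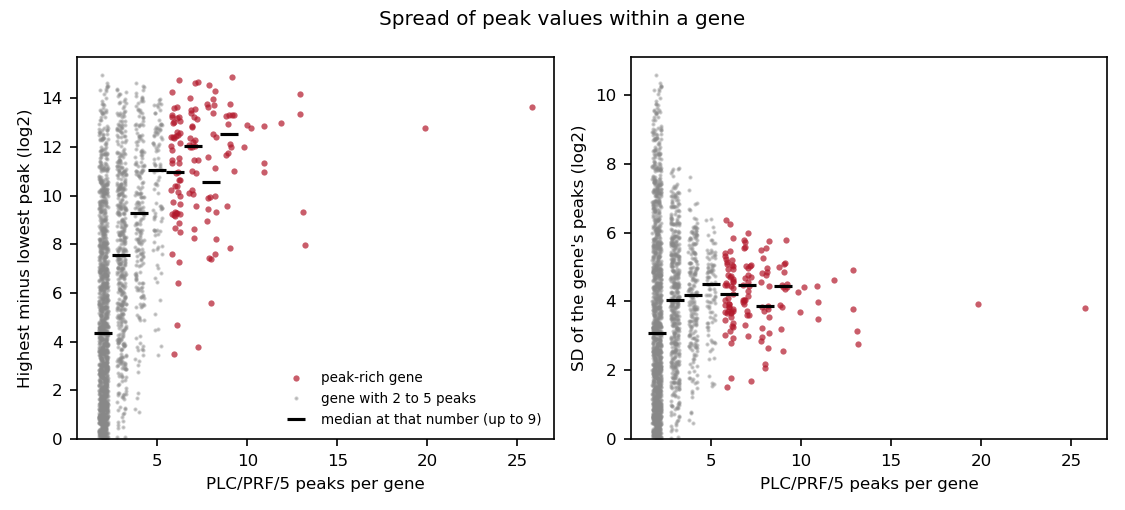
Highest minus lowest peak (left) and SD of the peaks (right) of each gene, both on the log2 scale, against its number of PLC/PRF/5 peaks, for peak-rich genes (red) and genes with 2 to 5 peaks (grey), with the median at each number up to 9 (black). The range is mostly wider in genes with more peaks, though its median is 11.07 at 5 peaks and 10.97 at 6. The peak-rich genes have a median range of 11.94, while their median SD of 4.32 is close to the 4.28 over all their peaks.

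HUH7 values of the same genes, 1 per gene in the table, were of both signs and past the fold about as often as in the rest of that column. Of the 128 names 110 were listed there (85.9%), against 70.2% of the other PLC/PRF/5 names. The share was 79.0% for names with 2 to 5 peaks and 64.8% for names with 1. The 18 absent names included UTRN, CEP290, MALAT1, NEB and KCNQ1OT1 of the genes with 9 or more peaks, and BDP1, GFPT1, CPS1, PCM1 and SMC4 of those with 7 or 8. A name can be absent because it is spelled otherwise in the HUH7 column, and merging old and current symbols left the median of the listed members at 0.0042.

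Positive HUH7 values were held by 58 of the 110 genes and negative ones by 52, 52.7% positive (exact 95% interval 43.0 to 62.3). The share was 60.8% over all HUH7 genes and 58.4% of the other HUH7 genes with a PLC/PRF/5 row, whose median was 0.13. The median of the 110 genes was 0.0042 with quartiles of -0.36 and 0.60. All other HUH7 genes had a median of 0.20 with quartiles of -0.36 and 0.88. Values between -0.5 and 0.5 were found for 54 genes (49.1%), against 42.2% of the other HUH7 genes. An absolute value of 1 or more was reached by 36 genes, 20 positive and 16 negative, or 32.7% (24.1 to 42.3), beside 36.9% over all HUH7 genes (22.2% positive and 14.6% negative) and 29.6% of the other HUH7 genes with a PLC/PRF/5 row. Since the share past the fold was close to that of the column, the count was no result about the peak-rich genes. In PLC/PRF/5 the median of all 110 genes was positive, so that 58 had the same deposited sign in the 2 lines and 52 the opposite one. That division restates the HUH7 signs, and whether both columns run in the same direction is not stated.

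Of the 36 genes past the fold in HUH7, 16 held a value shared to 6 decimals by 10 or more genes, called a repeated value here. Repeated values made up 14.5% of the 110 (8.55 to 22.5). The share was 12.6% over all HUH7 genes and 9.03% of the other HUH7 genes with a PLC/PRF/5 row. The 6 positive ones lay between 10.24 and 11.24 and belonged to CEP350, CPEB4, PIK3C2A, PCLO, RIF1 and VPS13A. The 10 negative ones lay between -9.27 and -7.94 and belonged to TJP1, ELK4, KNL1, CEP295, CHML, RAD50, ZC3H13, TPR, CENPE and CHD1. Undone from the log scale, the positive values stood to each other as the whole numbers 5, 7, 9 and 10 and the negative values as 4, 5, 6, 8, 9 and 10, each within 0.01 of a whole number. Their sizes were set apart from the other 94 genes, which ran from -2.31 to 4.32.

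The other 20 genes past the fold in HUH7 had values of the ordinary kind, 14 positive and 6 negative. BPTF had the highest at 4.32, followed by ATAD5, which unloads the replication clamp PCNA, at 3.89, ERC1 at 3.27, SYNE2 at 2.36 and DYNC1H1 at 2.26 in the authors' deposited table. RELN (1.81), CASP8AP2 (1.66), a histone gene transcription and apoptosis factor, BRCA2 (1.55), DST (1.36), USP9X (1.30) and CP (1.23) came next in the authors' deposited table. CHD7 (1.06), a chromatin remodeller gene, SRRM2 (1.03) and TTC3 (1.01) lay just past 1 in the authors' deposited table. On the negative side stood IBTK (-2.31), an inhibitor of Bruton's tyrosine kinase, REV3L (-2.27), CDC42BPA (-1.31), a cytoskeletal kinase gene, CEBPZ (-1.13), FAT1 (-1.12) and BRWD1 (-1.08) in the authors' deposited table. Over the 94 genes with such values 21.3% passed the fold, against 22.6% of the other genes with such values that also had a PLC/PRF/5 row and 27.9% of all other HUH7 genes with such values.

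In PLC/PRF/5 these 20 genes had peaks of varied size under either HUH7 sign. ATAD5 ran from -1.85 to 10.51, CHD7 from -1.0 to 12.56 and CASP8AP2 from -0.38 to 8.11 in the authors' deposited table. RELN had 6 positive peaks between 0.12 and 10.27 in the authors' deposited table. Among those negative in HUH7, CDC42BPA had 7 positive peaks between 1.16 and 11.38 and CEBPZ 6 positive peaks between 1.59 and 11.99 in the authors' deposited table. IBTK ran from -1.17 to 12.06 over 6 peaks in the authors' deposited table. Among the 14 of these genes positive in HUH7, DYNC1H1, BPTF, RELN, BRCA2 and SRRM2 had positive peaks throughout. The medians were 8.16 in DYNC1H1 and 3.28 in BPTF. The rest of the 14 had negative peaks as well, and 48 of all 128 peak-rich genes had positive peaks only.

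Of the 22 listed genes with 9 or more peaks, 8 (36.4%) lay within 0.5 of 0 in HUH7 and 7 (31.8%) were past the fold, beside 36.9% past it over all HUH7 genes. AHNAK had 0.0047, ASPM -0.05, NCOR1 -0.06 and TAOK1 0.13 in the authors' deposited table. CENPF (-0.20), PRKDC (0.28), RDX (-0.36), AKAP9 (0.49) and APOB (-0.50) were within -0.5 and 0.5 or at its edge, and MKI67 (0.54), MACF1 (-0.58), RANBP2 (-0.68) and ASH1L (-0.71) lay between 0.5 and 1 in size in the authors' deposited table. SON (0.91) and ZDBF2 (0.98) came close to 1 in the authors' deposited table. DST and MACF1, the 2 spectraplakin genes, thus had HUH7 values of opposite deposited sign.

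By role, the HUH7 values of the cytoskeletal group were 3 positive and 9 negative, with a median of -0.30, and those of the centrosome and spindle group 3 positive and 7 negative, with a median of -0.23. Motor and traffic genes had 7 positive and 2 negative values with a median of 0.47, and RNA genes 10 positive and 5 negative with a median of 0.24. Chromatin genes were divided, with 14 positive and 16 negative values and a median of -0.01. Over all HUH7 genes 60.8% were positive, with a median of 0.20. The group counts and medians include repeated values. These were 4 of the centrosome and spindle values, 3 each of the motor, RNA and chromatin values, and 1 cytoskeletal value. The 4 centrosome and spindle values past the fold were all repeated. The groups are small, each value comes from 1 comparison without replicates, and the differences between groups were not tested.

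**Figure D5:**
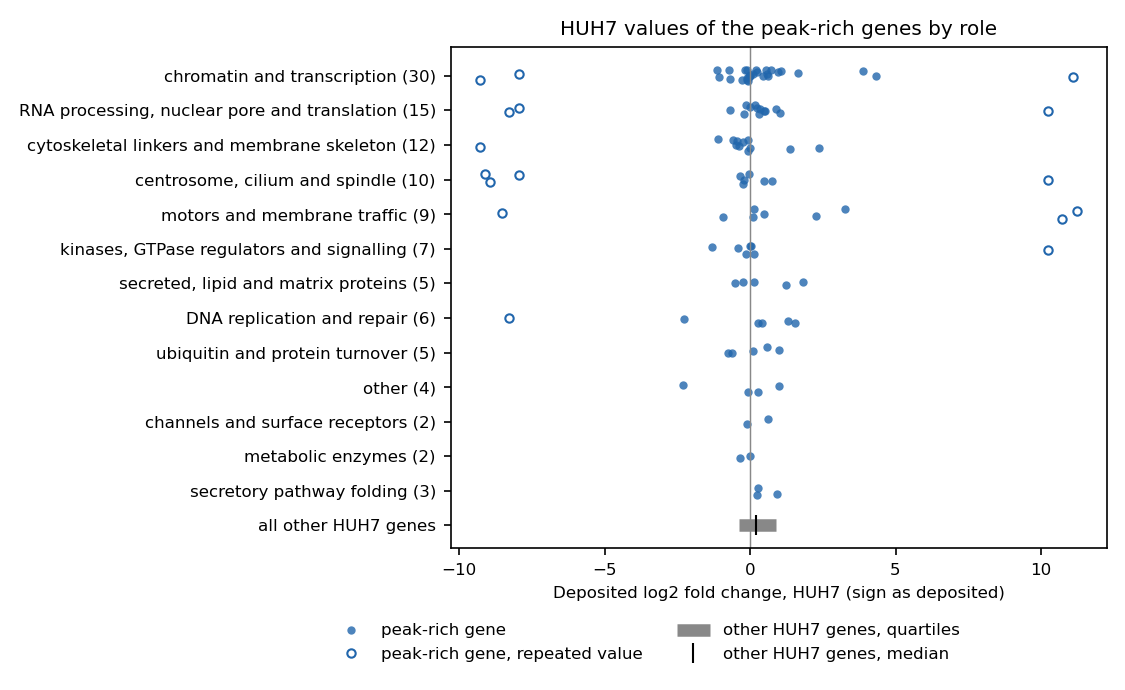
Deposited HUH7 log2 fold change (horizontal axis, sign as deposited) of each peak-rich gene listed there, grouped by role (vertical axis, number of genes in brackets), with repeated values as open circles and the quartiles and median of all other HUH7 genes at the bottom. Of the 110 genes 54 lie between -0.5 and 0.5, and the 16 repeated values stand apart between -9.27 and -7.94 and between 10.24 and 11.24.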

How the data were processed

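The input was 1 table of the authors' own comparisons, deposited for 8 libraries as gene names with log2 fold changes, 1 column pair per cell line. Per the file headers, the log2 values are differences under HUH7 and PLC/PRF/5. The submitters' processing notes name FastQC 0.12.0 and hg38. The aligner, peak caller, differential test, scaling and direction remain not given in the sources used here. Depth is unknown, and an even spread of values over the PLC/PRF/5 range was present before any step taken here.

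Names were counted as given in the PLC/PRF/5 block, and 6 or more rows made a member. Spans came from RefSeq (GRCh38.p14), matched by symbol or unambiguous synonym. A value was repeated when 10 or more HUH7 genes shared it to 6 decimals with a size above 1. The cut for size was an absolute log2 fold change of 1. Shares have exact Clopper-Pearson 95% intervals. With 1 library per group, no test was run. Genes were named by number of rows (9 or more, then up to 4 per role list), or by an unrepeated HUH7 value past the fold. The members and lists were chosen with earlier results of these data known. Alternatives were other row limits, merged symbols, other summaries and a cut of 2. Counting of members and of repeated values was tested on simulated data. Python 3.11.15, pandas 2.3.3, numpy 2.4.6 and scipy 1.17.1 were used. Some members that the naming rule would name are not reported here.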

Additional observations from a re-analysis of the deposited data

How the results depend on the processing

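No paired analysis was possible because each group held 1 library and the table gives values per comparison. Leaving out a replicate was not possible for the same reason. Of 30 recomputed values, 22 kept their sign and stayed within the counting interval of the reported value, or within 1.5 times the reported count, and 8 did not. The number of peak-rich genes was 220 with a limit of 5 rows and 49 with a limit of 8, against 128. The share of positive peaks was 92.3% over peaks at or beyond 1 in size, against 87.8% over all. With a cut of 2 in place of 1, the share of peaks past it was 75.7% in PLC/PRF/5 (87.8% at 1) and the share of genes past it 20.9% in HUH7 (32.7% at 1). Without repeated values, 21.3% of the HUH7 genes were past 1. The interquartile range within a gene had a median of 5.37, against 11.94 for the full range. Genes with peaks of both signs made up 43.0% when peaks under 1 in size were left out, against 62.5%. Merging symbols for the HUH7 median was an alternative chosen after seeing the data. Unknown depth limits every value: the intervals describe the lists, and no spread between libraries could be had.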
